A study of Mus musculus with 6 samples.

Results

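The cells described here are tumour-infiltrating CD8 T cells that carried Cx3cr1 transcripts while lying in clusters 0 and 8, in which genes of inhibitory receptors were high. The cells were chosen by their own Cx3cr1 count: a cell counted as Cx3cr1-positive when the authors had placed it in cluster 0 or 8 and it held at least 2 unique molecular identifiers (UMIs, each standing for 1 captured transcript) of Cx3cr1. There were 1674 such cells among 6564 cells of both clusters (25.5%) and among 26698 cells in all (6.27%). Each was compared with a cell of the same cluster and library in which no Cx3cr1 UMI was counted. Cx3cr1 itself chose the cells and is left out of every comparison.

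Cx3cr1 encodes the receptor of fractalkine, a chemokine that is tethered to the endothelium and also shed. On CD8 T cells in infection it marks effector differentiation with killing capacity, and in chronic infection and tumours it marks a transitory effector-like state that arises from progenitor cells expressing Tcf7. Terminally exhausted cells, by contrast, hold high levels of inhibitory receptors such as PD-1 and TIM-3 and are described as having largely lost Cx3cr1.

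The mice were wild-type C57BL6 animals of both sexes, inoculated under the skin at 6 weeks of age with MB49, a urothelial cancer cell line of mouse, and labelled as 6 to 8 weeks old. Tumours were taken on day 10, dissociated mechanically and with collagenase, and live CD3+ CD8+ CD4- cells were sorted for 3' droplet sequencing. Per the labels there were 3 biological replicates of each sex, and the deposited tables hold 6 libraries by number, 3 female (2, 5 and 6) and 3 male (1, 3 and 4). No label ties a library number to a mouse, so p-values rest on these 6 libraries. Where positive and zero cells were compared within each library, p-values measure how that difference varied over the libraries. Where male and female libraries were compared directly, they measure the spread between libraries.

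Libraries held 2121 to 7156 cells with a median of 6398 to 10115 UMIs per cell. Positive cells numbered 225 in male library 1, 251 in male library 3 and 360 in male library 4, and 228, 513 and 97 in female libraries 2, 5 and 6. Of 26698 cells, 84 barcodes occurred under more than 1 library number, and 5 positive cells had such a barcode.

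The positive cells carried markers of exhausted CD8 T cells. Over the 6 libraries they held 548 ± 78.4 CPM (counts of a gene scaled to a common total per library; mean ± SD) of Pdcd1, the gene of PD-1, against 43.9 ± 30.7 CPM in cluster 7, whose cells were high for Tcf7. Havcr2, the gene of TIM-3, stood at 476 ± 49.4 CPM in positive cells and 10.3 ± 6.51 CPM in cluster 7. Tcf7, the gene of the progenitor factor TCF1, showed the opposite order, with 14.5 ± 7.64 CPM in positive cells and 333 ± 47.9 CPM in cluster 7. Cd8a stood at 947 ± 66.8 CPM in positive cells. These levels are a description, because the same genes helped to form the clusters.

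Of the 4869 cells of cluster 0, 1349 were positive (27.7%), and of the 1695 cells of cluster 8, 325 were (19.2%). The median positive cell held 3 Cx3cr1 UMIs, 728 cells held exactly 2, and the highest count was 25. Just below the threshold lay 1321 cells of both clusters with 1 UMI, and 3569 cells had none. In cluster 7, where Cx3cr1 should be lacking, 5 of 1752 cells (0.285%) reached 2 UMIs at a median depth of 7465 UMIs, against median depths of 9163 in cluster 0 and 13987 in cluster 8. Cells with 2 or more Cx3cr1 UMIs were not restricted to these clusters, since 3698 cells of all 11 clusters reached that count, the 1674 among them. The share was 28.4% in cluster 3, 21.2% in cluster 5 and 14.9% in cluster 4, at median depths of 23987.5, 18351 and 9648 UMIs. In the remaining clusters it ran from 0.285% (cluster 7) to 8.05% (cluster 1).

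The share of positive cells in clusters 0 and 8 did not separate the sexes. It was 27.5%, 31.4% and 19.6% in female libraries 2, 5 and 6 and 21.1%, 31.0% and 20.8% in male libraries 1, 3 and 4. Both sexes spanned a similar range and overlapped. The means were 26.2 ± 6.02% (SD, n = 3) in females and 24.3 ± 5.80% (SD, n = 3) in males, with a two-sided exact permutation p = 0.9, where 0.1 is the smallest p that 3 against 3 libraries allow. A second share left out cells with fewer than 5000 UMIs and thinned each of the others to 5000. It was 11.4 ± 3.19% in females and 11.7 ± 1.49% in males (exact permutation p = 0.8).

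**Figure D1:**
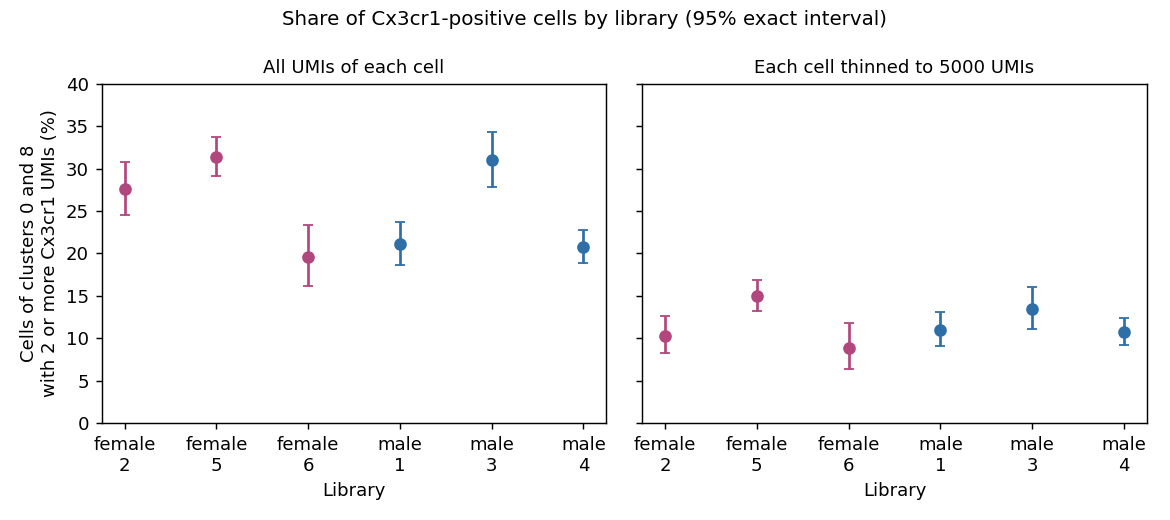
Percentage of cells in clusters 0 and 8 with at least 2 Cx3cr1 UMIs, 1 point per library with its exact (Clopper-Pearson) 95% binomial interval, which covers counting error only. The left panel uses all cells and UMIs. The right panel uses only cells with at least 5000 UMIs, each thinned to 5000. Female libraries lie at 19.6 to 31.4% and male libraries at 20.8 to 31.0% in the left panel, and the sexes overlap in both.

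Matching gave each of the 1674 positive cells a zero cell of its own cluster and library with a close UMI total. The median pair differed by 0.246% in UMIs, and 94.1% of pairs differed by at most 0.1 on the natural log scale. Median depth, averaged over libraries, was 11124 UMIs in positive and 11064 in matched zero cells, higher in positive cells in 6 of 6 libraries by 60 UMIs on average. Mean depth was also higher in positive cells in 6 of 6 libraries, at 11556 to 15719 UMIs against 11063 to 14951. Positive cells had more genes detected, 3100 ± 138 against 2984 ± 150 per cell (SD, n = 6), higher in 6 of 6 libraries with an exact sign-flip p = 0.03125, the smallest that 6 pairs allow. The mitochondrial share of UMIs was 4.20 ± 0.428% in positive and 4.24 ± 0.438% in zero cells (exact sign-flip p = 0.6875, n = 6).

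Positive cells had more RNA of both IL-18 receptor chains, of 4 of 11 killer lectin receptors, of 11 of 27 terminal exhaustion genes and of 11 of 23 genes of the T cell receptor response than matched zero cells. Nr4a2, Nr4a3 and Tnfrsf9 belong to both the exhaustion and the receptor response list and were counted as higher in each. Positive cells had less RNA of 32 of 32 ribosomal protein genes and of 13 of 23 glycolysis and hypoxia genes. Most differences were small. Of 9103 genes tested, 576 (6.33%) differed by edgeR's quasi-likelihood test with the library as a block and a Benjamini-Hochberg adjusted p under 0.05. Of these, 251 (2.76% of genes tested) were higher and 325 (3.57%) were lower in positive cells, and the median log2 fold change of all genes tested was 0.00089. The block carries the result: with no block for the library, 0 genes passed in edgeR and 655 had an unadjusted p under 0.05, against 1615 with the block. DESeq2 with the block called 279 genes, 99 higher and 180 lower, and limma-voom 577. With pairs restricted to those within 0.1 in log depth, a choice made after seeing the data, 504 genes passed in edgeR.

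**Figure D2:**
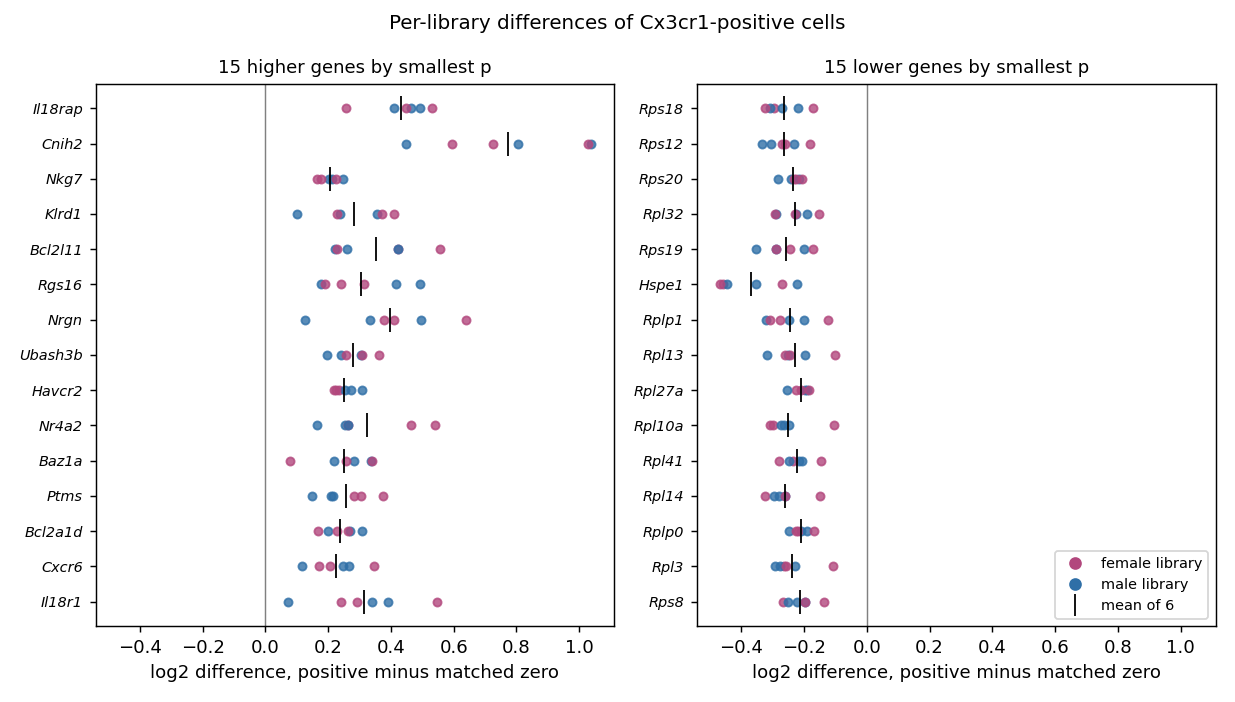
Log2 difference of positive minus matched zero cells in each of the 6 libraries (points, coloured by sex) and their mean (bar), for the 15 higher and 15 lower genes with the smallest p. All points lie right of 0 on the left panel and left of 0 on the right panel; 14 of the 15 lower genes encode ribosomal proteins.

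The receptor of IL-18, a cytokine that drives interferon gamma production in effector T cells, gave the most significant increase. Il18rap, the accessory chain (chromosome 1, 40515362 to 40551705, GRCm38), stood at 132 CPM in the lowest, 194 at the median and 227 in the highest of 6 libraries in zero cells, and at 158, 269 and 314 CPM in positive cells. The ranges overlapped between libraries, but positive cells were higher within each of the 6. The log2 fold change was 0.44 ± 0.04 (SE; 1.35-fold; edgeR adjusted p = 8.16e-12). Il18r1, the binding chain encoded beside it (40465552 to 40500854), ran from 105 over 163 to 187 CPM in zero and from 153 over 190 to 245 CPM in positive cells. It rose by 0.32 ± 0.04 on the log2 scale, in 6 of 6 libraries (edgeR adjusted p = 4.7e-07).

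Killer lectin receptors, inhibitory and activating receptors shared with natural killer cells, rose in part. Of 15 listed genes 11 were tested, 4 were higher, 0 were lower, and the list's median log2 change was 0.13. Klrd1, the gene of CD94, which pairs with NKG2 chains, ran from 819 over 924 to 1170 CPM in zero and from 878 over 1168 to 1515 CPM in positive cells. Its log2 fold change was 0.29 ± 0.03, higher in 6 of 6 libraries (edgeR adjusted p = 5.02e-09). Klre1, Klrk1 (NKG2D) and Klrc1 (NKG2A) rose by 0.25, 0.15 and 0.13. Klrg1, a marker of effector cells, ran from 4.69 to 17.4 CPM in zero and from 6.81 to 16.6 CPM in positive cells and did not pass (0.11 ± 0.14, edgeR adjusted p = 0.772). The summed natural killer and innate-like markers were 420 to 1983 CPM in positive and 607 to 1673 CPM in zero cells, higher in positive cells in 3 of 6 libraries. A sum follows its most abundant members. Of the 7 members tested only 1 had a log2 change above 0, the median was -0.20, and Tyrobp was called lower. The change in cluster 8 minus that in cluster 0 was above 0 for 0 of 7 members (median -1.58), and 0 of these differences passed.

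Only some of the genes known from transitory effector cells moved. Of 30 listed genes 29 were tested, 9 were higher and 0 lower, with a median of 0.04. The 9 were both IL-18 receptor chains, the 4 lectin receptors, Itga4 (an integrin chain of homing, 0.27 ± 0.06), Rap1b (a small GTPase of adhesion, 0.13 ± 0.03) and Id2 (an inhibitor of helix-loop-helix factors, 0.12 ± 0.03). Rap1b missed the threshold without female library 2 or male library 3, and the direction of Id2 turned in cluster 8 alone (-0.051). Zeb2, a repressor that drives terminal effector differentiation, ran from 85.2 to 118 CPM in zero and from 77.6 to 111 CPM in positive cells, and did not pass (0.01 ± 0.05, edgeR adjusted p = 0.95). Neither did Tbx21, the gene of T-bet (0.12 ± 0.06), Klf2 (-0.09 ± 0.07) or S1pr1, a receptor of tissue egress (0.01 ± 0.13).

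Genes of terminal exhaustion were higher more often than genes of the transitory effector list, 11 of 27 tested against 9 of 29, a difference in counts that was not tested. The list's median was 0.12, and 1 member, Tnfrsf4 (OX40, -0.17 ± 0.04), was lower. Havcr2 ran from 345 over 380 to 460 CPM in zero and from 414 over 459 to 538 CPM in positive cells. The ranges overlapped, positive cells were higher within 6 of 6 libraries, and the log2 fold change was 0.25 ± 0.03 (edgeR adjusted p = 8.04e-08). Lag3, a further inhibitory receptor, rose by 0.19 ± 0.03, and Pdcd1 by 0.16 ± 0.04 in 4 of 6 libraries (edgeR adjusted p = 0.0152), which missed the threshold without female library 2, male library 3 or female library 5. Rgs16, a brake on G protein signalling, rose by 0.31 ± 0.04, and Cxcr6, the receptor for CXCL16 that retains T cells in tumours, by 0.22 ± 0.03. Tox, the factor that maintains exhaustion (0.03 ± 0.07), and Entpd1, the gene of CD39 (0.12 ± 0.07), did not pass.

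T cell receptor signal response genes moved mostly upward, with 11 of 23 tested higher and 2 lower, and a median of 0.15. Nr4a2, a nuclear receptor induced by antigen signalling, ran from 159 over 185 to 227 CPM in zero and from 209 over 238 to 261 CPM in positive cells. It rose by 0.31 ± 0.04, in 6 of 6 libraries (edgeR adjusted p = 1.49e-07). Irf8 (0.26 ± 0.04), Sh2d2a, an adaptor of the receptor (0.20 ± 0.03), Egr1 (0.35 ± 0.06) and the phosphatase Dusp2 (0.15 ± 0.03) rose with it. Irf8 missed the threshold without cells that held a myeloid or class II UMI. Il2ra, the high-affinity chain of the IL-2 receptor, and Cd69, an early activation antigen, fell by 0.24 and 0.25 on the log2 scale. Cd69 missed the threshold without female library 2, male library 4 or female library 5. Ubash3b, a phosphatase that dampens receptor signalling, rose by 0.28 ± 0.04.

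**Figure D3:**
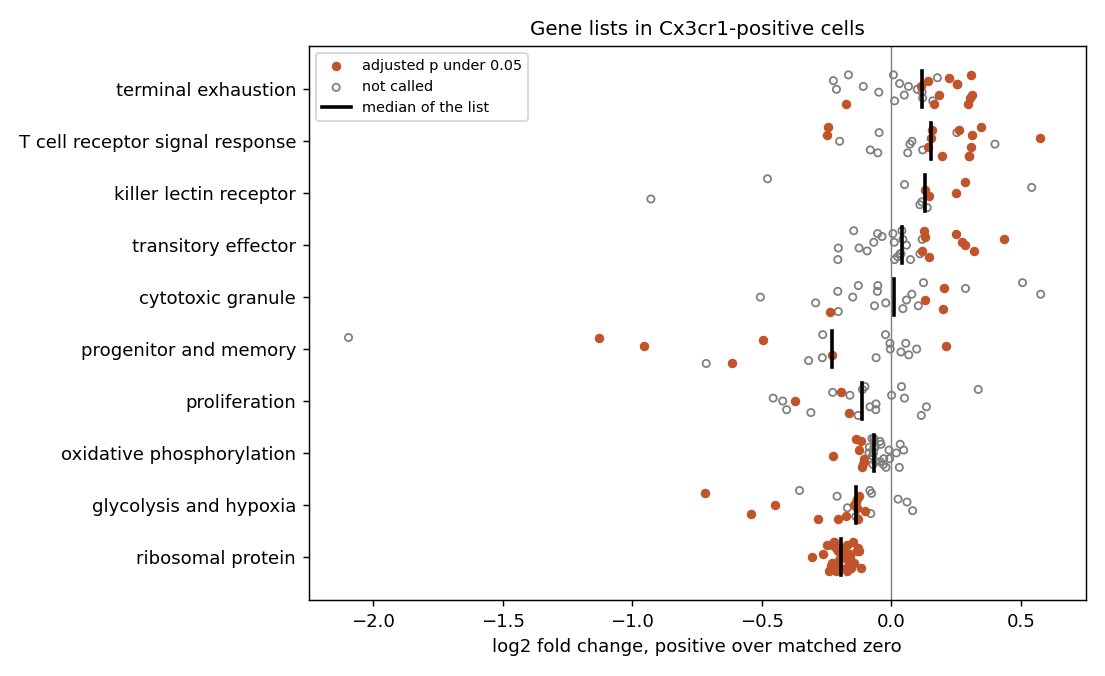
Log2 fold change of positive over matched zero cells for every tested member of 10 gene lists; filled points passed an adjusted p under 0.05 over all genes, open points did not, and the bar is the list's median. The ribosomal protein list lies wholly left of 0 with a median of -0.19, and the T cell receptor list has the highest median, 0.15.

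Of 19 cytokine and chemokine genes tested 2 were higher and 1 lower, with a median of 0.09. Ccl5, a chemokine of effector CD8 T cells, ran from 3562 over 4776 to 5384 CPM in zero and from 4612 over 6679 to 7398 CPM in positive cells. It rose by 0.48 ± 0.04, in 6 of 6 libraries (edgeR adjusted p = 1.86e-05). Ccl4 rose by 0.58 ± 0.09 (edgeR adjusted p = 0.0249), but missed the threshold without male library 1, female library 2, male library 4 or female library 6. Ccl3 (0.53 ± 0.17) and Ifng (0.28 ± 0.23) did not pass. Of 22 cytotoxic granule genes tested, 3 were higher and 1 lower, with a median of 0.01. Nkg7, a granule membrane protein needed for degranulation, ran from 2594 to 3615 CPM in zero and from 3030 to 4053 CPM in positive cells, and rose by 0.20 ± 0.02 (edgeR adjusted p = 1.2e-09). The proteoglycan Srgn (0.13 ± 0.03) and the death ligand Fasl (0.20 ± 0.04) rose too, and Lamp1 fell by 0.24 on the log2 scale, missing the threshold without female library 2 or male library 3. The granzymes and perforin did not pass: Gzmb changed by -0.21 ± 0.09, Gzma by -0.20 ± 0.32 and Prf1 by 0.04 ± 0.04.

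Of 15 survival and apoptosis genes tested 3 were higher and 2 lower, with a median of 0.02, and both pro-apoptotic and anti-apoptotic members were among each. Bcl2l11, the gene of the pro-apoptotic protein BIM, ran from 162 over 195 to 213 CPM in zero and from 218 over 234 to 287 CPM in positive cells. These ranges did not overlap, and the log2 fold change was 0.34 ± 0.04 (edgeR adjusted p = 1.5e-08). The anti-apoptotic Bcl2a1d (0.24 ± 0.03) and Bcl2a1b (0.18 ± 0.03) rose as well, although these near-identical copies cannot be told apart with certainty in 3' reads. Bcl2, which is anti-apoptotic, fell by 0.20 on the log2 scale and the pro-apoptotic Bbc3 by 0.53; Bcl2 missed the threshold without male library 1, male library 3 or female library 5, and Bbc3 without male library 1, female library 2 or female library 5. The gene with the steepest rise among those listed by smallest p was Cnih2, an auxiliary subunit of glutamate receptors in neurons, at 16.7 to 40.3 CPM in zero and 28.3 to 70.9 CPM in positive cells. Its log2 fold change was 0.75 ± 0.08, higher in 6 of 6 libraries (edgeR adjusted p = 2.46e-10).

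Progenitor and memory genes pointed downward where they passed. Of 19 tested, 5 were lower and 1 higher, with a median of -0.23. Id3, a factor of memory and progenitor cells, was counted 46 times in positive and 94 times in zero cells, at 0 to 3.51 CPM against 1.33 to 9.03 CPM. It changed by -1.13 ± 0.27 (edgeR adjusted p = 0.00454). Myb, which maintains progenitors, changed by -0.50 ± 0.12 and Ccr7, the lymph node homing receptor, by -0.95 ± 0.18, the latter missing the threshold when any 1 library other than male library 1 was left out. Tnfsf8 (-0.62 ± 0.16) missed it without male library 3 or 4, and Slamf6, a surface marker of progenitors (-0.23 ± 0.07), without male library 1, female library 2 or male library 4. Tcf7 ran from 7.14 over 29.6 to 58.9 CPM in zero and from 4.32 over 12.6 to 23.2 CPM in positive cells, lower in 5 of 6 libraries, and did not pass (-0.71 ± 0.34, edgeR adjusted p = 0.377). The member that was higher was S1pr4 (0.21 ± 0.06), which missed the threshold without female library 2.

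Ribosomal protein genes were lower throughout. All 32 listed genes were tested and called lower, with a median log2 change of -0.19, and of 84 tested genes with a ribosomal protein symbol 80 were lower and 0 higher. They made up 27.7% of UMIs in positive and 30.4% in matched zero cells, lower in positive cells in each of the 6 libraries. Rps18, of the small subunit, ran from 4720 over 5383 to 5773 CPM in zero and from 4055 over 4356 to 4664 CPM in positive cells. The ranges did not overlap, and the log2 fold change was -0.27 ± 0.02, which is 16.8% lower (edgeR adjusted p = 1.01e-12). Rps12 behaved alike, with 4854 to 5420 CPM in zero and 4050 to 4310 CPM in positive cells (-0.26 ± 0.02). Ribosomal protein genes have many processed pseudogenes, and reads shared with these are uncertain.

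Many messages of this family begin with a run of pyrimidines, through which their translation is tied to growth signalling. The start regions of the 2 genes with the smallest p are shown from 30 bases before to 30 bases from the transcription start on, in RefSeq's GRCm38.p6, minus strand, at chr17:33955636-33955695 for Rps18 and chr10:23787180-23787239 for Rps12. Capitals mark the run of at least 7 C or T that overlaps the window from 10 bases before to 30 bases after the start. In Rps18 the run spans the start, and in Rps12 it lies downstream of the start that RefSeq gives.
Rps18: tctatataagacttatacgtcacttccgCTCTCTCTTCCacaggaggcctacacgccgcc
Rps12: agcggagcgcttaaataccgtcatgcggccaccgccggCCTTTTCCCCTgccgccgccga
Of 32 listed ribosomal protein genes 22 were in the RefSeq table, each judged on its first entry. Such a run was held by 14 of these (63.6%), against 28.7% of 27025 genes. The match describes these letters and says nothing about regulation in these cells.

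Glycolysis and hypoxia genes formed the next group that fell. Of 23 tested, 13 were lower and 0 higher, with a median of -0.14. Bnip3, a mitophagy receptor induced in low oxygen, ran from 69.0 over 104 to 165 CPM in zero and from 52.1 over 73.1 to 99.7 CPM in positive cells. Positive cells were lower in 6 of 6 libraries, by 31.4% (log2 fold change -0.54 ± 0.06, edgeR adjusted p = 6.61e-09). Ero1l, an oxidase of the endoplasmic reticulum (-0.45 ± 0.05), and Egln3, an oxygen-sensing prolyl hydroxylase (-0.72 ± 0.13), fell in 6 of 6 libraries. The enzymes themselves fell less: Gapdh changed by -0.12 ± 0.02, Aldoa by -0.14 ± 0.03 and the glucose transporter Slc2a1 by -0.28 ± 0.06.

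Hypoxia-inducible factors bind DNA at a short core sequence. The 250 bases before the RefSeq start are shown for Bnip3 (chr7:138909507-138909756) and Egln3 (chr12:54203875-54204124), both on the minus strand of GRCm38.p6, because these genes fell furthest in the list. Capitals mark ACGTG or GCGTG on either strand (CACGT or CACGC when read backward).
Bnip3: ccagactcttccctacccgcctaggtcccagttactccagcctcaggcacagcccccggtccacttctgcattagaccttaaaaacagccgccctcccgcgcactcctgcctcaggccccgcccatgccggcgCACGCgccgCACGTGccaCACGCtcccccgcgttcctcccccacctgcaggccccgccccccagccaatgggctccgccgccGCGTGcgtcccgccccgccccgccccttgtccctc
Egln3: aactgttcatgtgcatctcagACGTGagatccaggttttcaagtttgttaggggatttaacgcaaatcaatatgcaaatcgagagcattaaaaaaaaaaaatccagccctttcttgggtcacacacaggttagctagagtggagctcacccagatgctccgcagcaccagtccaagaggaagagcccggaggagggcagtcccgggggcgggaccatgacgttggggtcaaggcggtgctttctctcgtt
The Bnip3 stretch held 5 matches, 2 of them overlapping in CACGTG, and the Egln3 stretch 1. Of 24 listed glycolysis and hypoxia genes 22 were in the table, each judged on its first entry. A match was held by 15 of these (68.2%), against 38.6% of 27025 genes. A match is not a bound site.

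Hspe1, a mitochondrial chaperonin that is in none of the lists, ran from 464 over 528 to 585 CPM in zero and from 385 over 403 to 425 CPM in positive cells, without overlap. Its log2 fold change was -0.38 ± 0.04, 23.0% lower (edgeR adjusted p = 1.45e-11). Hsp90aa1 (-0.34 ± 0.03), Hspa8 (-0.19 ± 0.03) and Dnajb1 (-0.35 ± 0.07) fell too. These 3 heat shock genes belong to a list of 18 immediate early and dissociation genes, of which they were the 3 lower and 2, Egr1 and Ier2 (0.16 ± 0.04), higher. Ier2 missed the threshold without female library 5. Of 31 nuclear-encoded genes of oxidative phosphorylation 7 were lower and 0 higher (median -0.07), and of 13 mitochondrially encoded genes 2 were lower. The most significant of the former, Sdhd, changed by -0.22 ± 0.06 and missed the threshold without female library 2.

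Of 21 proliferation genes tested 3 were lower (Hmgb2, Stmn1 and Tubb5) and 0 higher, with a median of -0.11, and Mki67 did not pass (0.12 ± 0.11). Stmn1 missed the threshold without female library 2, and Tubb5 without male library 1 or 4 or female library 2 or 5. Hmgb2, a chromatin protein of dividing cells, ran from 316 over 361 to 389 CPM in zero and from 275 over 313 to 328 CPM in positive cells (-0.20 ± 0.03, edgeR adjusted p = 5.97e-05). Of 27 interferon-stimulated genes tested only the GTPase Gbp7 passed (0.16 ± 0.04), and the median was 0.02. In the TGF-beta response list, whose median was 0.14, 2 of 9 rose, Rgs16 and Pmepa1, a feedback inhibitor of SMAD signalling (0.35 ± 0.10), the latter missing the threshold without male library 4 or female library 5. Of 32 transcription factors tested, 4 were higher (Irf8, Id2, Ikzf3 and Runx2) and Id3 was lower; Ikzf3 missed the threshold without male library 4, and Runx2 without male library 1 or 4 or female library 5. Migration and adhesion genes numbered 10 higher and 3 lower of 29.

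Levels changed stepwise with the Cx3cr1 count for several of these genes, given as a description because the count chose the cells. Il18rap averaged 186 ± 35.8 CPM (SD, n = 6 libraries) in matched cells with 0 UMIs, 216 ± 53.5 with 1, 243 ± 75.3 with 2 and 260 ± 51.8 with at least 3. Cnih2 followed the same order, from 28.1 ± 9.86 over 36.2 ± 10.3 and 45.0 ± 16.2 to 50.1 ± 17.1 CPM. Rps18 went down in the same order, from 5271 ± 467 over 4744 ± 408 and 4430 ± 255 to 4319 ± 236 CPM. Bnip3 dropped between 0 and 1 UMI, from 107 ± 36.2 to 77.6 ± 26.4 CPM, and stayed at 73.8 ± 22.6 and 75.7 ± 18.2 CPM above. Cells with 1 UMI, just outside the threshold, thus lay between zero and positive cells for Il18rap, Cnih2 and Rps18, and next to positive cells for Bnip3. The SDs of neighbouring classes overlapped throughout. Only the class with 0 UMIs was matched, to the positive cells as a whole. Depth and the mix of clusters may therefore differ between the classes.

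**Figure D4:**
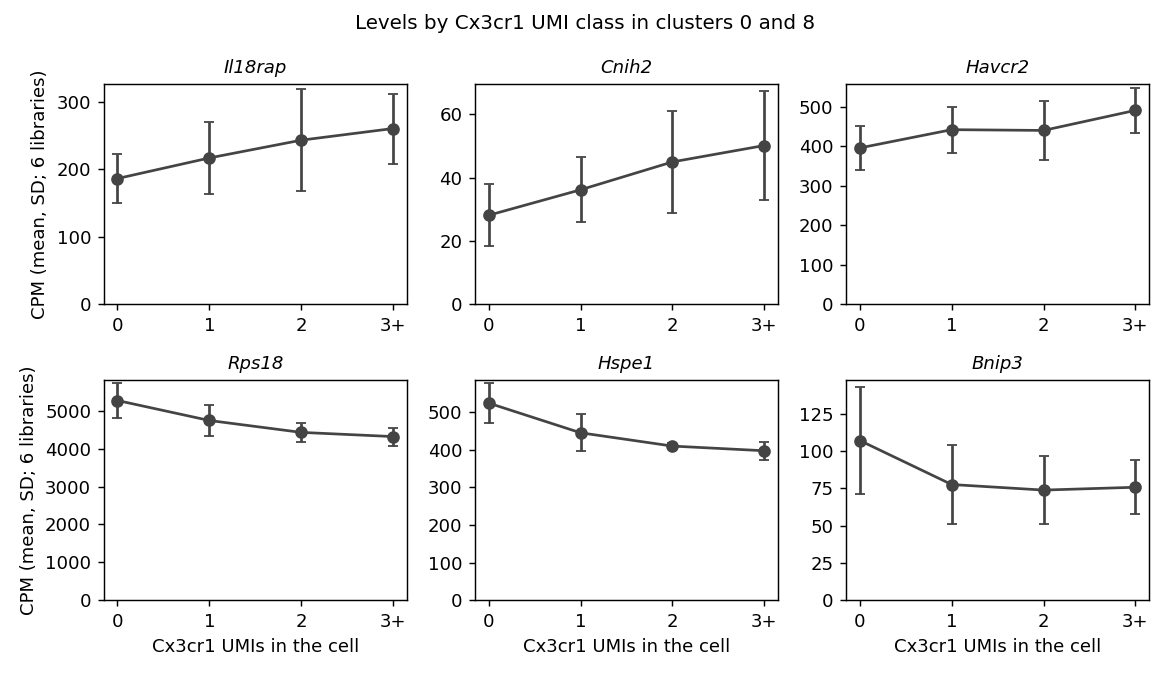
Mean CPM with SD over 6 libraries for 6 genes in cells of clusters 0 and 8 with 0 (matched), 1, 2 or at least 3 Cx3cr1 UMIs. Il18rap climbs from 186 to 260 CPM and Rps18 falls from 5271 to 4319 CPM across the classes.

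Between male and female mice the positive cells differed in genes of the sex chromosomes. Of 9218 genes tested 9 passed (0.0976%), 4 higher (0.0434%) and 5 lower (0.0542%) in males, and each lies on the X or Y chromosome. Eif2s3y, on the Y chromosome, was counted in male libraries only (105 ± 3.38 CPM, n = 3), and Xist, which silences 1 X chromosome in females, in female libraries only (580 ± 44.1 CPM, n = 3). No member of a gene list passed between the sexes. For Il18rap the male minus female difference was 0.09 on the log2 scale, and for Havcr2 -0.16. The difference between positive and zero cells itself differed between the sexes for 1 of 9445 genes (0.0106%), Fcer1g, the gene of an adaptor of Fc receptors. Fcer1g stood at 53.2, 18.7 and 28.0 CPM in positive and 54.8, 15.6 and 22.1 CPM in zero cells of male libraries 1, 3 and 4. In female libraries 2, 5 and 6 it stood at 8.85, 38.0 and 58.3 CPM in positive and 15.3, 82.3 and 80.8 CPM in zero cells. Its level was lower in positive than zero cells in every female library, and the sex difference was 1.07 ± 0.17 (male minus female, edgeR adjusted p = 0.00189), missing the threshold without female library 5.

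The difference between positive and zero cells differed between clusters 8 and 0 for 1 of 8325 genes (0.012%), Kdm2b, a histone demethylase. Kdm2b stood at 114 ± 15.2 CPM in positive and 106 ± 12.8 CPM in zero cells of cluster 0, and at 85.7 ± 13.3 and 48.5 ± 13.4 CPM in cluster 8 (SD, n = 6). The difference was 0.62 ± 0.12 (cluster 8 minus 0, edgeR adjusted p = 0.0401) and missed the threshold without any 1 of 4 libraries. Taken alone, cluster 0 called 390 genes and cluster 8 called 261, of which 72 were higher and 189 lower. Of the 576 genes called over both clusters, 570 could be tested in cluster 0 alone and 570 kept their direction there, and 531 of 538 kept it in cluster 8 alone. The 576 genes were called on these same cells, and 1349 of the 1674 positive cells were of cluster 0. A kept direction is thus largely built in and is no independent support. Havcr2 rose by 0.30 in cluster 0 and was not called in cluster 8 (0.13, edgeR adjusted p = 0.375), and the difference between the clusters did not pass for any gene but Kdm2b.

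Cluster 1, at 233 ± 101 CPM of Pdcd1 and 154 ± 60.6 CPM of Tcf7, held 289 cells with at least 2 Cx3cr1 UMIs among 3591 (8.05%). There the same comparison called 195 of 3282 genes (5.94%), 62 higher (1.89%) and 133 lower (4.05%). The smallest sum of a library held 12 cells, against 97 in clusters 0 and 8. Median depth was 5345 UMIs in cluster 1, 9163 in cluster 0 and 13987 in cluster 8. The same threshold may thus select cells differently in cluster 1, which was not tested. Klrg1 stood at 98.2 ± 59.8 CPM in positive and 18.7 ± 14.6 CPM in zero cells of cluster 1 (log2 fold change 2.30 ± 0.24), Zeb2 at 159 ± 46.1 and 60.6 ± 27.7 CPM (1.45 ± 0.18), and Tcf7 at 69.0 ± 30.3 and 195 ± 61.5 CPM (-1.43 ± 0.16). All 32 ribosomal protein genes were again lower (median -0.36), and 12 of 29 transitory effector genes were higher. Il18rap rose there too, by 0.77 ± 0.13.

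The difference between cluster 1 and clusters 0 and 8 was tested directly. It passed for 54 of 7756 genes (0.696%). The signed log2 change was higher in cluster 1 for 27 of these and lower for 27. A gene that fell further in cluster 1, such as Rpl12, counts as lower. The limits of depth and cell number in cluster 1 apply here as well. Zeb2 (1.46 ± 0.17, edgeR adjusted p = 1.54e-09) and Klrg1 (2.21 ± 0.29, edgeR adjusted p = 2.67e-08) were among the 7 of 30 transitory effector genes that differed, together with Ahnak, Emp3, S100a10, Klf2 and Prf1. Of these, Emp3 missed the threshold without male library 4, Klf2 without female library 5, and Prf1 without male library 1 or 4 or female library 5 or 6. Of 27 terminal exhaustion genes tested 1 differed, Rgs16 (0.78 ± 0.18), which missed the threshold without male library 4 or female library 5. For Il18rap the difference was 0.33 ± 0.12 and did not pass (edgeR adjusted p = 0.285), and the same held for Havcr2 (0.26 ± 0.13, edgeR adjusted p = 0.577) and Tcf7 (-0.70 ± 0.44, edgeR adjusted p = 0.732). Ly6e and Pmepa1 differed in the other direction, by -0.62 ± 0.09 and -1.37 ± 0.23. Pmepa1 was called higher in clusters 0 and 8 and lower in cluster 1. Without male library 4 the count of differing genes was 29, and without female library 5 it was 33.

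**Figure D5:**
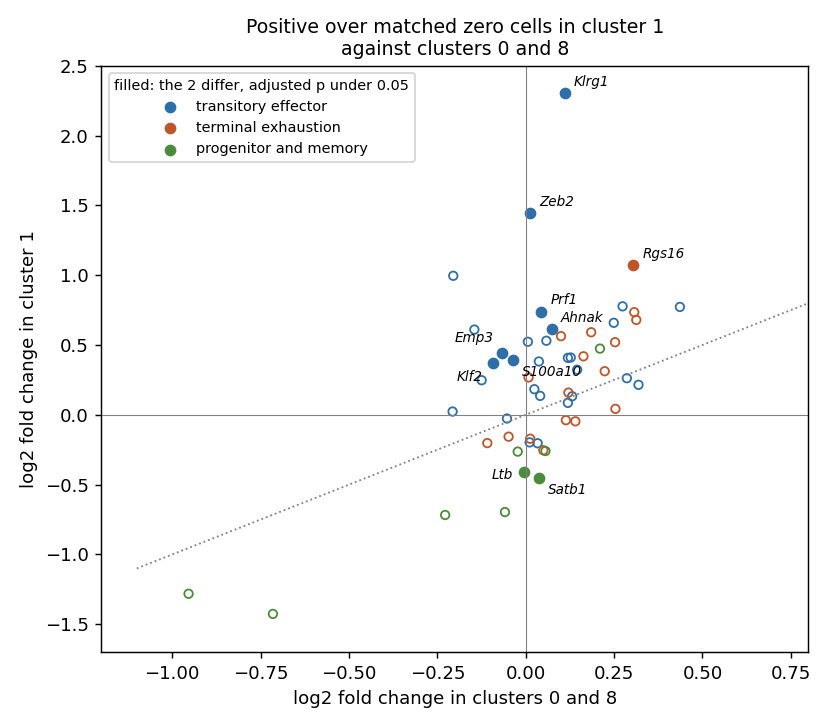
Log2 fold change of positive over matched zero cells in clusters 0 and 8 (horizontal) and in cluster 1 (vertical) for members of 3 gene lists; the dotted line marks equal changes and filled, named points differ between both with an adjusted p under 0.05. Klrg1 and Zeb2 stand at 2.30 and 1.45 in cluster 1 and at 0.11 and 0.01 in clusters 0 and 8.

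The 21 myeloid genes summed to 167 to 247 CPM in positive and 188 to 240 CPM in zero cells, and Lyz1 was at 0. Class II genes summed to 22.9 to 57.3 CPM in positive and 30.1 to 67.7 CPM in zero cells, lower in positive cells in 6 of 6 libraries, with H2-Ab1 called lower (-0.79 ± 0.16). A UMI of a myeloid or class II marker was present in 15.5% of positive and 15.1% of zero cells, and without such cells 361 genes were called. CD4 and regulatory T cell markers summed to 44.3 to 94.6 CPM in positive and 40.6 to 65.7 CPM in zero cells, higher in positive cells in 6 of 6 libraries, with Ccr8 called higher of 3 tested and Il17a at 0. Summed gamma-delta T cell markers stayed at 0 to 1.08 CPM and red cell markers at 0 to 1.67 CPM in positive cells. CD8 T cell genes summed to 6417 to 7439 CPM in positive and 6012 to 6629 CPM in zero cells, higher in positive cells in 6 of 6 libraries, with Cd3e, Cd8a, Cd5 and Cd8b1 called higher of 9 tested. Cd8a and Cd5 missed the threshold without female library 5, and Cd8b1 without female library 2 or 5 or male library 3 or 4. The part these markers play in the differences was not tested.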

How the data were processed

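The authors deposited a table of UMI counts per gene and cell, 15601 genes by 26698 cells, and a table with each cell's UMI total, genes detected, sex and cluster number; Cell Ranger, Seurat and mm10 are named per the submitters' processing notes, with versions and settings not given in the sources used. Per the file headers the counts are not normalized, and each cell's total equals its deposited value. No doublet caller was run. Counts were summed per library and status, filtered with filterByExpr, scaled by TMM and tested with edgeR 4.0.16 (robust quasi-likelihood, R 4.3.3), with the library as a block because both sums come from the same library, and Benjamini-Hochberg adjustment over all genes tested. CPM values of comparisons are TMM-scaled. DESeq2 1.42.0 and limma-voom 3.58.1 were alternatives. The plan was 3 zero cells per positive cell; too few exist (3569 for 1674), so 1 was used, by least total distance on log UMIs (scipy 1.17.1), and 3 with reuse was added later. The test was also run on simulated counts with known changes, drawn from the means and fitted dispersion of these data. Members and gene lists were chosen with earlier results of these data known. Named genes are the 15 called genes per direction with the smallest p, at least 5 CPM and 1 direction in 6 libraries, leaving out gene model names, and up to 4 per list; other members were named from the same lists afterwards. Gene positions are from GENCODE M21. Intervals cover counting error only. In summed cells, fewer expressing cells and less RNA per cell cannot be told apart.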

Additional observations from a re-analysis of the deposited data

Results flagged for a closer look

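Among 80 genes examined for a library standing apart from the other 5, 5 were picked out; chance flags about 1 in 20 groups. In female library 6, the library with the fewest positive cells (97), the decrease was smaller than elsewhere for Rpl10a (log2 difference -0.11, others -0.31 to -0.25), Rpl14 (-0.15, others -0.32 to -0.26) and Rpl3 (-0.11, others -0.29 to -0.23). Id3 stood at -3.38 in female library 6, where no Id3 UMI was counted in positive cells, and at -1.32 to -0.10 in the others. Sdhd stood at -0.47 in female library 2 and at -0.22 to -0.11 in the others.

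Of the genes chosen by the naming rule, a tested difference between groups picked out 14. Between the sexes it was Fcer1g (1.07, male minus female), and between clusters 8 and 0 it was Kdm2b (0.62). Between cluster 1 and clusters 0 and 8 the signed log2 change in positive cells was higher in cluster 1 for Klrg1 (2.21), Zeb2 (1.46), Stmn1 (1.38), Rgs16 (0.78), Ahnak (0.53), Hsp90aa1 (0.47), Itgb2 (0.45) and Baz1a (0.43). Of these, Stmn1 and Hsp90aa1 were called lower in clusters 0 and 8. The signed change was lower in cluster 1 for Pmepa1 (-1.37), Ly6e (-0.62), Bcl2l11 (-0.58) and Bcl2 (-0.55). Of these, Pmepa1 and Bcl2l11 were called higher and Bcl2 lower in clusters 0 and 8.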

How the results depend on the processing

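The count of 576 called genes moved to 0 with no replicate block (no block for the library), 269 with cells thinned to 5000 UMIs, 279 by DESeq2, which gave no adjusted p for 127 of the 576, 261 in cluster 8 alone, 361 without cells holding a myeloid or class II UMI, and 360 with 3 matched zero cells and reuse, an alternative chosen after seeing the data. Leaving out 1 library gave 395 to 610. The direction was the same for 576 of 576 genes by DESeq2 and for 540 of 541 after thinning. Thinning kept the 1608 pairs in which both cells held at least 5000 UMIs. Over 80 named genes and all alternatives, 1541 of 1814 values kept direction and call, 244 lost the call (71 of them with no replicate block), 27 gained it and 2 reversed, both in cluster 8 alone: Id2 (-0.051) and Ifi27l2a (0.036). Without a filter on low counts the sex comparison called 41 genes, the sex difference 5 and the cluster difference 25. Leaving out 1 library gave 9 to 12, 1 to 4 and 0 to 4 for these, 29 to 70 for the difference between cluster 1 and clusters 0 and 8, and 150 to 201 in cluster 1. With reuse the mitochondrial share was lower in positive cells by 0.121 percentage points (-0.121, exact sign-flip p = 0.03125, lower in 6 of 6 libraries). The causes were not tested. No paired analysis was possible between the sexes because no label gives the library numbers a replicate. Depth limits Id3, Egr2 and Ccr8, which rest on 46, 179 and 127 UMIs in positive cells.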

Other observations

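Several genes outside the groups above moved within the Cx3cr1-positive cells. Nrgn, a calmodulin-binding protein best known from neurons, ran from 87.6 over 130 to 155 CPM in zero and from 117 over 162 to 219 CPM in positive cells (log2 fold change 0.38 ± 0.05, edgeR adjusted p = 3.33e-08), higher in 6 of 6 libraries. It was not called in cluster 0 alone. Baz1a, a chromatin remodelling subunit, rose by 0.25 ± 0.03 and Ptms, a small acidic nuclear protein, by 0.25 ± 0.03, each in 6 of 6 libraries. Ccr8, a chemokine receptor of tissue regulatory T cells and a member of the CD4 and regulatory T cell markers, which summed higher in positive cells in 6 of 6 libraries, was called higher (0.73 ± 0.23, edgeR adjusted p = 0.0384) on 127 UMIs in positive and 70 in zero cells, and missed the threshold without male library 1, female library 2 or male library 4. Tyrobp, an adaptor of natural killer and myeloid receptors, was called lower (-1.47 ± 0.30, edgeR adjusted p = 0.0351) on 152 and 395 UMIs, and missed it without any 1 of 5 libraries. Lta, the gene of lymphotoxin alpha, changed by -0.55 ± 0.15 and missed it without male library 3, male library 4 or female library 5.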
